A study of Arabidopsis thaliana with 12 samples.

Results

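The 8 genes described here are the Arabidopsis floral meristem identity genes LEAFY (LFY, AT5G61850), UNUSUAL FLORAL ORGANS (UFO, AT1G30950), APETALA1 (AP1, AT1G69120), CAULIFLOWER (CAL, AT1G26310), FRUITFULL (FUL, AT5G60910), LATE MERISTEM IDENTITY 1 (LMI1, AT5G03790), LATE MERISTEM IDENTITY 2 (LMI2, AT3G61250) and PERIANTHIA (PAN, AT1G68640). They were taken by gene identifier from a table of 33559 genes, and all 8 were found, each in a row of its own. The study followed RNA from vegetative tissue through early flower formation in 4 groups of the Landsberg erecta (Ler) background. These were rosette leaves of wild-type plants in flower, untreated apices with the genotype ap1 cal 35S::AP1-GR (day 0), apices of the same genotype taken on day 2 after 10 µM dexamethasone, and whole main inflorescences of wild-type plants from which the oldest flowers had been taken off. The apices were the cauliflower-like structures of the main inflorescence, dissected away from leaf and pedicel tissue. All samples came from plants grown in long days. The labels list 3 libraries in each group, and the expression table holds 1 merged value per gene and group.

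A floral meristem is the small dome of stem cells that becomes a flower instead of a shoot. LFY is a plant-specific transcription factor that commits a young meristem to this fate, UFO is the F-box protein that works with it, and the MADS-box proteins AP1, CAL and FUL hold that fate with overlapping roles. LMI1, a homeodomain-leucine zipper protein, and LMI2, a MYB protein, are known as targets of LFY that help to switch on CAL and AP1, and PAN is a bZIP protein that sets floral organ number and helps to activate the floral homeotic gene AG. TFL1 keeps the shoot tip in the inflorescence state and opposes LFY and AP1.

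In the apices used here AP1 and CAL are mutated, and the added 35S::AP1-GR transgene, driven by the constitutive 35S promoter, makes AP1 joined to the hormone-binding domain of the glucocorticoid receptor (GR). The fusion stays inactive until dexamethasone is given. The values of AP1 in these apices may therefore come from the transgene, from the mutated gene or from both, which the table cannot separate. No group of mock-treated apices is labelled, so dexamethasone and the elapsed 2 days cannot be told apart at day 2.

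Levels are given in FPKM, fragment counts scaled by transcript length and sequencing depth, which allows genes of different length to be set side by side. With 1 value per group there is no replicate spread, no test and no p-value for any difference below. Of all genes, 22289 reached 1 FPKM in at least 1 group and were compared. A difference is log2(FPKM + 1) in the first-named group minus that in the other, and a call of higher or lower required a size of at least 1 and at least 5 FPKM in the higher group. The labelled tissues were set beside their defining genes. The 5 shoot meristem genes STM, KNAT1, CLV3, WUS and CLV1 summed to 28.1 FPKM in leaves, 340.3 FPKM at day 0, 397 FPKM at day 2 and 99.4 FPKM in inflorescences, and 27.6 FPKM of the leaf sum was CLV1. The 6 anther and tapetum genes stayed below 5 FPKM in leaves and in both groups of apices, and 5 of them passed it in inflorescences. Of the 5 leaf photosynthesis genes, LHCB2.2, LHCB4.1, PSBO1 and RCA had 35.9, 338, 728 and 259 FPKM at day 0 against 256, 3009, 5349 and 3862 FPKM in leaves, the highest of the 4 groups for each, and all 4 were called lower at day 0. The fifth, RBCS1A, which encodes a subunit of the carbon-fixing enzyme of every green cell, was listed at 0 in leaves and at 2029 FPKM or more in the other groups. An exact 0 in this table can thus be a failed estimate.

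The 8 genes formed different patterns over the 4 groups. LFY stood at 0.208 FPKM in leaves, 45.2 FPKM at day 0, 158 FPKM at day 2 and 3.31 FPKM in inflorescences. UFO followed at a lower level, with 0.0222 FPKM in leaves, 19.4 FPKM at day 0, 64.1 FPKM at day 2 and 0.673 FPKM in inflorescences. Both genes peaked at day 2, which held 76.4% of the summed level of LFY over the 4 groups and 76.2% of that of UFO. For both, each step in the order day 2, day 0, inflorescences met the rule, and the last step from inflorescences to leaves did not.

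PAN had 0.0952 FPKM in leaves, 50.8 FPKM at day 0, 79.5 FPKM at day 2 and 9.65 FPKM in inflorescences. LMI2 had 0.556 FPKM in leaves, 123 FPKM at day 0, 126 FPKM at day 2 and 17.0 FPKM in inflorescences. Both were high in the apices, where neither met the rule between the days, lower in inflorescences and near 0 in leaves. LMI1, the other late meristem identity gene, was the lowest of the 8 in the apices, at 0.177 FPKM in leaves, 8.46 FPKM at day 0, 7.04 FPKM at day 2 and 6.95 FPKM in inflorescences. Its values in the 3 groups other than leaves met no rule among themselves, and inflorescences held 30.7% of its summed level, the highest share among the 8 genes.

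AP1 was the most abundant of the 8 genes wherever meristems or flowers were sampled, at 0.429 FPKM in leaves, 659 FPKM at day 0, 813 FPKM at day 2 and 151 FPKM in inflorescences. At day 2 it ranked 124th among the 22289 genes. It made up 59.1% of the summed level of the 8 genes at day 0, 58.5% at day 2 and 57.5% in inflorescences, although the day-0 and day-2 values may hold transgene reads and the inflorescence value does not. CAL, its closest relative, was listed at 0 in leaves and had 16.8 FPKM at day 0, 14.6 FPKM at day 2 and 8.21 FPKM in inflorescences. The level of AP1 was 39.3 times that of CAL at day 0, 55.9 times at day 2 and 18.4 times in wild-type inflorescences, where both genes are intact.

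FUL, which also acts in leaves, stems and fruit, was the exception among the 8 genes in leaves. It had 88.6 FPKM in leaves, 193 FPKM at day 0, 127 FPKM at day 2 and 65.4 FPKM in inflorescences. In leaves FUL exceeded 87.7% of all genes compared, whereas LFY, UFO, AP1, LMI1, LMI2 and PAN stayed below 1 FPKM and CAL was listed at 0. FUL was also the only one of the 8 whose lowest value lay in inflorescences, though inflorescences and leaves did not differ by the rule.

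**Figure D1:**
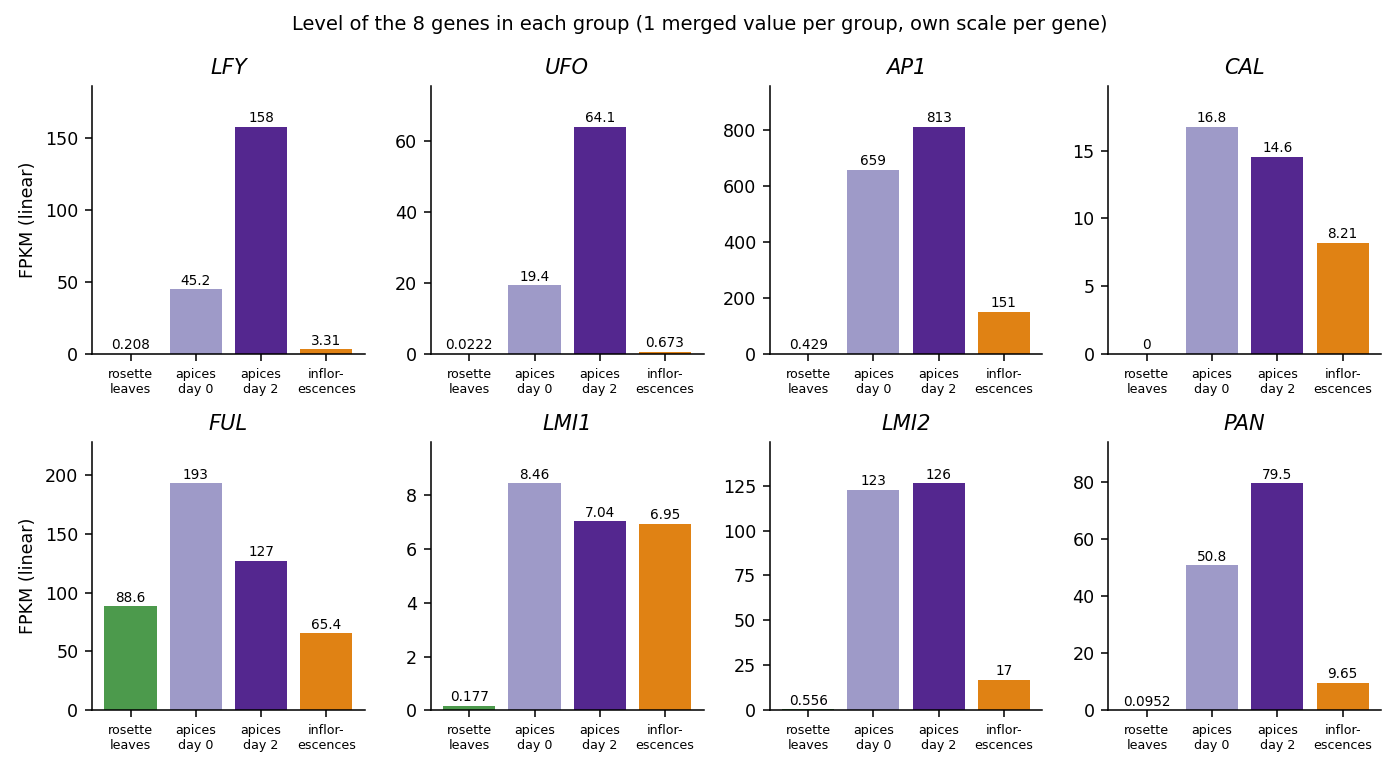
Level in FPKM (vertical axis, linear, own scale for each gene) of the 8 genes in rosette leaves, apices at day 0, apices at day 2, and inflorescences, with 1 merged value per group and no error bars. LFY and UFO peak at day 2 at 158 and 64.1 FPKM, while FUL is the only gene with a tall bar in leaves, at 88.6 FPKM.

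The comparison of day 2 with day 0 asks which of these genes differ in the apices after AP1-GR activation. LFY and UFO were higher at day 2, and none of the 8 genes was lower. LFY had 158 FPKM at day 2 against 45.2 FPKM at day 0, a 3.50-fold ratio and a log2 difference of 1.78. UFO had 64.1 FPKM at day 2 against 19.4 FPKM at day 0, a 3.31-fold ratio and a log2 difference of 1.68. These placed LFY 79th and UFO 94th from the top of the 22289 differences. Over all genes 0.817% were called higher and 1.64% lower, so 2 of 8 genes called higher is above that background, in a set chosen with these results known.

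The other 6 genes met no rule between the days. PAN had 79.5 FPKM at day 2 against 50.8 FPKM at day 0, a log2 difference of 0.64 that lay above that of 97.3% of all genes. AP1 had 813 FPKM at day 2 against 659 FPKM at day 0, a difference of 0.30. LMI2 differed by 0.043, with 126 FPKM at day 2 against 123 FPKM at day 0. On the other side of 0 stood FUL, with 127 FPKM at day 2 against 193 FPKM at day 0 and a difference of -0.60, and 5.47% of all genes lay lower. LMI1 at -0.23 and CAL at -0.19 lay closer to 0. The median difference of the 8 genes was 0.17, against -0.00419 for all genes compared, and without AP1 and CAL it was 0.34. With a call at 1.5-fold, PAN would be called higher and FUL lower. None of the shoot meristem, leaf photosynthesis or anther genes met the rule between the days, and the shoot meristem genes summed to 397 FPKM at day 2 against 340.3 FPKM at day 0.

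The ratio of LFY to TFL1 set the floral regulator against its opponent on the FPKM scale. LFY stood at 11.5 times TFL1 at day 2 and at 0.548 times TFL1 at day 0. TFL1 itself was lower, with 13.7 FPKM at day 2 against 82.4 FPKM at day 0. The ratio of LFY to UFO was nearly the same in both, at 2.46 at day 2 and 2.34 at day 0, whereas that of PAN to LFY was 0.503 at day 2 and 1.12 at day 0.

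**Figure D2:**
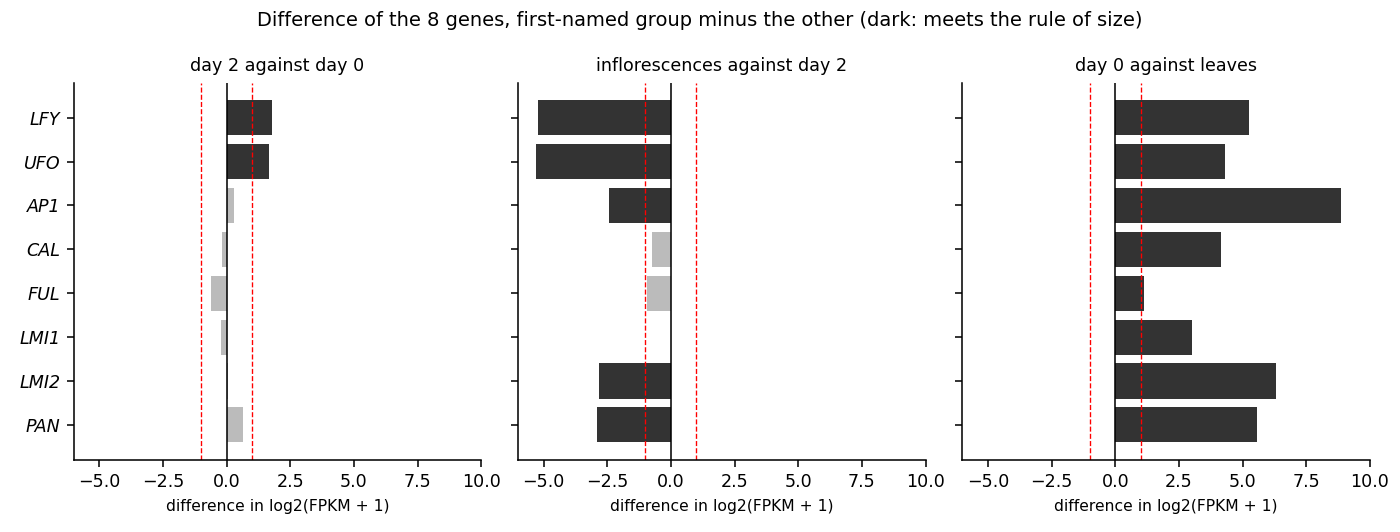
Difference in log2(FPKM + 1) of the 8 genes (horizontal axis) for day 2 minus day 0, inflorescences minus day 2, and day 0 minus leaves, with dashed lines at -1 and 1 and dark bars for genes that met the rule of size. Only LFY at 1.78 and UFO at 1.68 are dark in the first panel, and both lie below -5 in the second.

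Wild-type inflorescences were next set against day-2 apices, which differ from them in genotype, stage, treatment and sampled tissue together. In such whole-tissue RNA, fewer cells of a type and less RNA per cell cannot be told apart. Of the 8 genes, 5 were lower in inflorescences and none was higher, where 4.22% of all genes were called lower and 13.9% higher. UFO had 0.673 FPKM in inflorescences against 64.1 FPKM at day 2, which is 95.4-fold lower, and LFY had 3.31 FPKM against 158 FPKM, 47.8-fold lower. Their log2 differences of -5.28 and -5.21 were the 6th and 8th lowest of all 22289 genes.

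PAN had 9.65 FPKM in inflorescences against 79.5 FPKM at day 2 and was 8.24-fold lower. LMI2 was 7.44-fold lower, at 17.0 FPKM in inflorescences against 126 FPKM at day 2. AP1 was 5.40-fold lower, at 151 FPKM in inflorescences against 813 FPKM at day 2, a value that may include the transgene. Without AP1 and CAL, 4 of the 6 remaining genes were lower.

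CAL, FUL and LMI1 met no rule here. CAL had 8.21 FPKM in inflorescences against 14.6 FPKM at day 2, and LMI1 had 6.95 FPKM against 7.04 FPKM. FUL, at 65.4 FPKM in inflorescences against 127 FPKM at day 2, lay just short of the rule at -0.95 and passed it at -1.03 when each group was scaled to the same sum. The members differed widely in this comparison, from -5.28 for UFO to -0.017 for LMI1, with a median of -2.62 against 0.061 for all genes.

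Genes of other tissues moved with this comparison, in which 13.9% of all genes were called higher and 4.22% lower. The 6 anther and tapetum genes summed to 1172 FPKM in inflorescences against 5.39 FPKM at day 2, with 5 of the 6 higher. All 5 leaf photosynthesis genes were higher too, with a sum of 12401 FPKM in inflorescences against 3125 FPKM at day 2. Of these sums RBCS1A, the gene listed at 0 in leaves, made up 8661 and 2029 FPKM. Of the 5 shoot meristem genes 4 were lower, with a sum of 99.4 FPKM in inflorescences against 397 FPKM at day 2. CLV3 stood at 0.0768 FPKM against 9.14 FPKM. The remaining gene, WUS, went the other way without a call, with 17.8 FPKM in inflorescences against 13.4 FPKM at day 2. Against the 6.91 FPKM of day 0, WUS was called higher in inflorescences. The part of this tissue make-up in the lower values of the 5 genes was not tested.

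Set against day-0 apices instead, inflorescences had 6 of the 8 genes lower and none higher, with 3.97% of all genes called lower and 12.5% called higher. This comparison shares its inflorescence values with the one above. LFY had 3.31 FPKM in inflorescences against 45.2 FPKM at day 0, 13.7-fold lower, and UFO had 0.673 FPKM against 19.4 FPKM, 28.8-fold lower. The sixth gene was FUL, 2.95-fold lower at 65.4 FPKM in inflorescences against 193 FPKM at day 0. AP1, LMI2 and PAN were 4.37-fold, 7.21-fold and 5.26-fold lower in inflorescences than at day 0, where the AP1 value may include the transgene. CAL was 2.04-fold lower but missed the rule at -0.95 on the log2(FPKM + 1) scale, and it met the rule at -1.02 with a pseudocount of 0.1. LMI1 differed by -0.25.

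Leaves gave the vegetative reference, and they differ from the apices in tissue and in genotype. All 8 genes were called higher in day-0 apices than in leaves, against 16.3% of all genes called higher and 23.0% called lower. The call of CAL rests on its listed 0 in leaves, which can be a failed estimate, and so do its calls in the other comparisons with leaves. Without AP1 and CAL, 6 of 6 genes were higher. AP1 had the 5th highest difference of all 22289 genes, 8.85 on the log2(FPKM + 1) scale. It had 659 FPKM at day 0, which may include the transgene, against 0.429 FPKM in wild-type leaves. LMI2 followed at 6.31, PAN at 5.56 and LFY at 5.26, and these 3 genes ranked 31st, 68th and 83rd. FUL had the smallest difference of the 8, 1.12, with 193 FPKM at day 0 against 88.6 FPKM in leaves. CAL stood at 16.8 FPKM at day 0 and was listed at 0 in leaves, so no ratio is given.

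Day-2 apices had 7 of the 8 genes called higher than leaves and none lower, against 16.4% of all genes called higher and 23.9% called lower. Without AP1 and CAL, 5 of 6 were higher. FUL was the gene without a call. It had 127 FPKM at day 2 against 88.6 FPKM in leaves, a difference of 0.52, which became 1.07 and met the rule when the groups were scaled to the same sum. LFY ranked 19th among all differences, with 158 FPKM at day 2 against 0.208 FPKM in leaves. In inflorescences 5 of the 8 genes were higher than in leaves and none was lower, against 17.1% of all genes called higher and 18.9% called lower. These were AP1, CAL, LMI1, LMI2 and PAN. Without AP1 and CAL, 3 of 6 were higher. LFY, at 3.31 FPKM in inflorescences against 0.208 FPKM in leaves, and UFO, at 0.673 FPKM against 0.0222 FPKM, stayed below the minimum of 5 FPKM.

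FUL had 65.4 FPKM in inflorescences against 88.6 FPKM in leaves, a difference of -0.43 that turned to 0.034 after scaling to the same sum. That scaling shifted the median of all genes by 0.27, 0.31 and 0.42 for day 0, day 2 and inflorescences against leaves. It raised the share of calls on the higher side to 59.4%, 60.0% and 65.8%, against 41.5%, 40.7% and 47.5% with the values as deposited. Scaling to the same upper quartile gave 53.9%, 53.6% and 60.4%. The calls of the 7 genes other than FUL against leaves were the same under both scalings.

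The genes that surround the 8 in the network were described by lists based on textbook roles. Among 19 upstream activators, 4 were lower at day 2 than at day 0 and none was higher, with a median difference of -0.31. Over all genes 1.64% were called lower and 0.817% higher. FD, the bZIP partner of the florigen FT, had 65.7 FPKM at day 2 against 159.9 FPKM at day 0, and its paralog FDP had 36.4 FPKM against 86.0 FPKM. SPL9 had 33.3 FPKM at day 2 against 72.9 FPKM at day 0, and SPL15 had 5.56 FPKM against 16.2 FPKM. Both belong to the SPL family, which promotes the floral transition. FT itself, made in leaf veins, had 4.75 FPKM at day 2 against 0.713 FPKM at day 0, below the minimum for a call, and at 41.1 FPKM in leaves. MP, ANT and AIL6, which link auxin and organ initiation to LFY, had 202, 184 and 55.9 FPKM at day 2 against 136, 110.5 and 31.8 FPKM at day 0 and met no rule.

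Of 12 repressors, 2 were lower at day 2 and none was higher, beside 1.64% and 0.817% of all genes, with a median of -0.22. TFL1 was 6.02-fold lower than at day 0, and TOE3, an AP2-like repressor of flowering, had 1.95 FPKM at day 2 against 5.46 FPKM at day 0. SVP, a MADS-box repressor, had 41.3 FPKM at day 2 against 81.9 FPKM at day 0 and lay just short of the rule at -0.97. The Polycomb-related genes of the list, EMF1, EMF2, CLF, SWN and LHP1, met no rule between the days. CLF, for example, had 17.1 FPKM at day 2 against 17.9 FPKM at day 0.

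None of 10 genes for protein partners met the rule between the days. The median difference was 0.056, and over all genes 0.817% were called higher and 1.64% lower. ASK1, the SKP1-like adaptor that binds UFO, had 444 FPKM at day 2 against 391 FPKM at day 0, and the cullin gene CUL1 had 100.4 FPKM against 119.9 FPKM. The chromatin remodelling gene SYD, whose product is recruited by LFY, had 33.8 FPKM at day 2 against 33.4 FPKM at day 0. UFO itself had 64.1 FPKM at day 2, below the other subunits named here. ROXY1, a glutaredoxin that interacts with PAN, had 61.1 FPKM at day 2 against 42.6 FPKM at day 0. In inflorescences ROXY1 was 19.4-fold lower than at day 2, the only partner gene with a call there.

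Among the 10 genes listed as downstream targets of LFY, UFO, AP1 and PAN, 7 were higher at day 2 than at day 0. None was lower, and the median was 1.60, where 0.817% of all genes were called higher and 1.64% lower. The list is a selection, and the activators and repressors above, of which 4 and 2 were lower, were not counted in it. The 7 higher genes were the B-class genes AP3 and PI, the C-class gene AG, the SEPALLATA genes SEP1, SEP2 and SEP3, and AP2. AP3, a joint target of LFY and UFO, had 202 FPKM at day 2 against 1.31 FPKM at day 0. AG, a target of LFY and PAN, had 16.9 FPKM at day 2 against 0.849 FPKM at day 0. WUS, the stem cell organiser gene that is also among the shoot meristem genes, had 13.4 FPKM at day 2 against 6.91 FPKM at day 0 and met no rule, and neither did RAX1, a MYB gene bound by LFY, with 9.28 FPKM at day 2 against 14.3 FPKM at day 0. Against day 2, inflorescences had 3 targets higher, 3 lower and a median of 0.51, with 13.9% of all genes called higher and 4.22% lower. RAX1 was among the lower ones, 24.3-fold lower at 0.381 FPKM in inflorescences, while AP3 had 173 FPKM in inflorescences against 202 FPKM at day 2. SEP4, the third target without a call between the days, was also lower, with 16.5 FPKM in inflorescences against 45.5 FPKM at day 2, and so was AP2, with 25.0 FPKM against 63.2 FPKM. Over all 10 targets, the levels in inflorescences ran from 0.381 FPKM for RAX1 to 207 FPKM for SEP3.

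**Figure D3:**
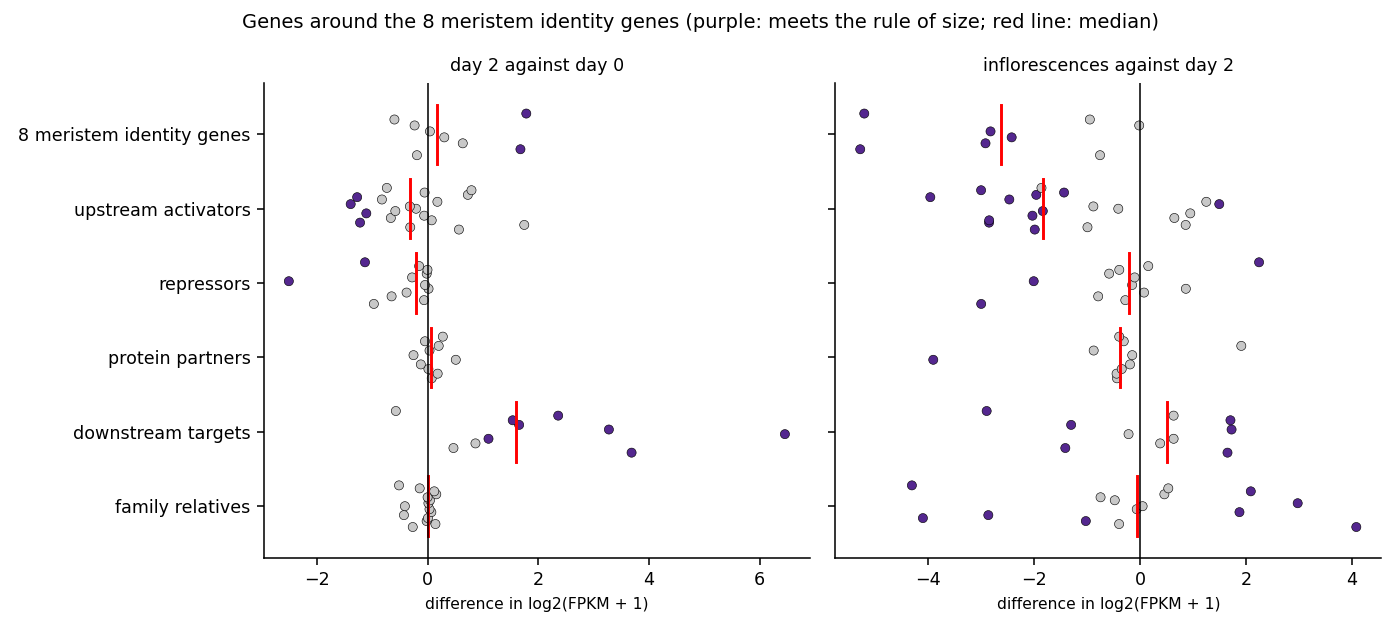
Each point is a gene and its difference in log2(FPKM + 1) (horizontal axis) for day 2 minus day 0 and inflorescences minus day 2, by list, with purple points for genes that met the rule of size and red lines at the medians. The downstream targets centre at 1.60 in the first panel, and the 8 meristem identity genes at -2.62 in the second.

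Relatives from the same gene families were set beside the 8 genes. None of 15 relatives that passed 1 FPKM met the rule between day 2 and day 0, where 0.817% of all genes were higher and 1.64% lower. AGL79, the remaining relative of AP1 and FUL, did not reach 1 FPKM in any group. In inflorescences against day 2, 4 relatives were higher and 4 lower, beside 13.9% and 4.22% of all genes. LMI1 met no rule there, whereas 3 of its 4 homeodomain relatives were lower. HB21 had 3.41 FPKM in inflorescences against 74.7 FPKM at day 2, HB53 had 0.568 FPKM against 30.1 FPKM and HB22 had 0.140 FPKM against 7.31 FPKM. HB40, the remaining relative, had 8.69 FPKM against 8.38 FPKM, beside 6.95 FPKM and 7.04 FPKM for LMI1.

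LMI2 was lower in inflorescences than at day 2, and both of its MYB relatives were higher. MYB16, a regulator of epidermal cell shape and cuticle, had 51.4 FPKM in inflorescences against 11.3 FPKM at day 2, and MYB106 had 7.27 FPKM against 1.25 FPKM. PAN had a higher level in the apices than its TGA relatives. In day-2 apices PAN had 79.5 FPKM, and the highest of 9 TGA genes was TGA3 at 21.0 FPKM. In leaves PAN had 0.0952 FPKM, while 7 of the 9 TGA genes lay between 13.6 and 86.1 FPKM. TGA9 and TGA10, which act in anther development, had 18.3 and 7.32 FPKM in inflorescences against 0.142 and 0.0582 FPKM at day 2.

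**Figure D4:**
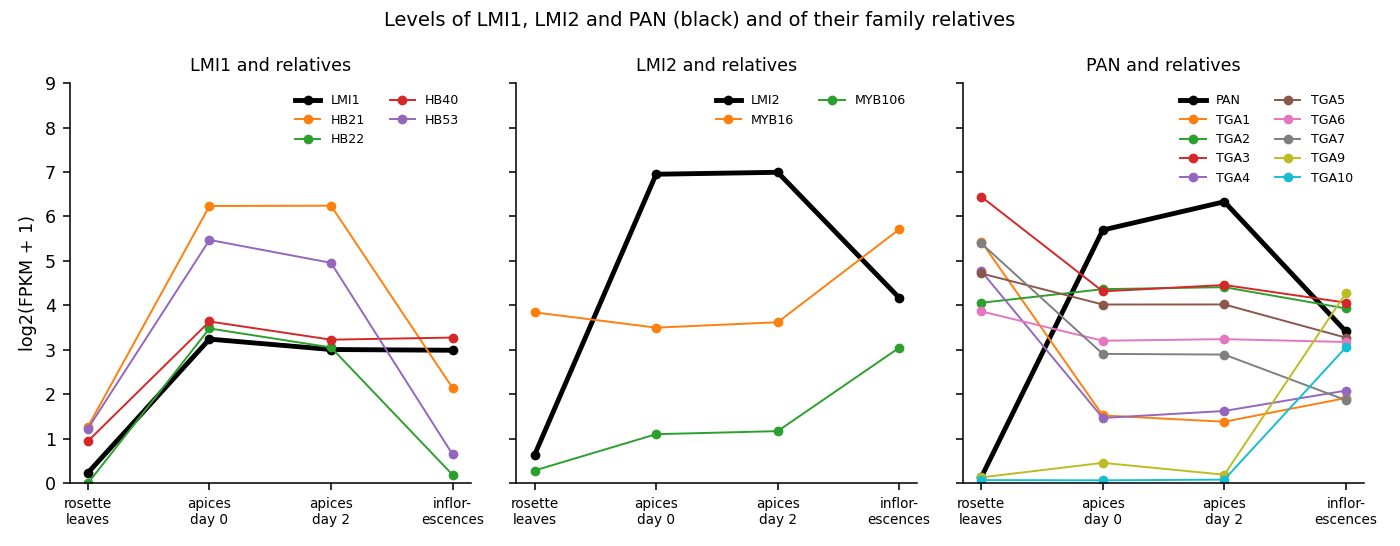
Level as log2(FPKM + 1) (vertical axis) of LMI1, LMI2 and PAN (black) and of their family relatives (coloured) in rosette leaves, apices at day 0, apices at day 2, and inflorescences, with lines joining values of the same gene. PAN lies above all 9 TGA genes in the apices and is near 0 in leaves, and LMI2 lies above MYB16 in the apices and below it in inflorescences.

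The genes closest in pattern were found by the root mean square difference between log2(FPKM + 1) profiles over the 4 groups, each centred on its own mean, among 18018 genes. The profiles were not scaled, so this distance reflects the size of the differences between groups as well as the shape. With 4 merged values per gene it is a description only. Within the set the closest pairs were LMI2 with PAN, at 0.28, and LFY with UFO, at 0.45, followed by CAL with LMI1 at 0.50. The least alike were AP1 and FUL, both of the same MADS-box clade, at 3.44. The day-0 and day-2 values of AP1 may include the transgene, in this distance and in its likeness to other genes below.

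Among the genes searched, UFO was the closest to LFY. It was followed among genes with a symbol by FPF1, a flowering-promoting gene, at 0.49 and ROXY1 at 0.57. For UFO the closest was LOG5, of the family of cytokinin-activating enzymes, at 0.39, with 458 FPKM at day 2 against 191 FPKM at day 0, then LFY and ROXY1. No gene searched came within 0.25 of LFY, UFO or AP1, whereas 127 genes did for CAL, 125 for LMI1 and 70 for FUL. Such counts depend on the size of the differences in each profile and on which genes were searched, so they do not measure how rare a shape is. The profile of CAL, here and below, rests in part on its listed 0 in leaves, which can be a failed estimate.

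REM1, a B3-domain gene of reproductive meristems, was closest both to LMI2 and to PAN, at 0.16 each, with 91.7 FPKM at day 2 against 69.3 FPKM at day 0. ERL2, a receptor kinase gene of the ERECTA family, came next for both, at 0.22 and 0.20, and each of LMI2 and PAN was the third for the other. For AP1 the nearest were CYP706A3 at 0.32, AN3, a coactivator of leaf and organ growth, at 0.48, and PDF1, an epidermal gene, at 0.54. For FUL they were CKX7, a cytokinin oxidase gene, at 0.073, MIR166a at 0.12 and GIF3 at 0.14, for CAL they were GHR1, SKS1 and ABCG18 at up to 0.058, and for LMI1 they were PG1, TRM28 and TAR2 at up to 0.094. TAR2 encodes an auxin synthesis enzyme. With a pseudocount of 0.1 all 3 of these genes were kept for LFY and FUL, 2 for UFO, 1 each for AP1 and PAN, and none for CAL, LMI1 and LMI2.

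The 8 genes lie on chromosomes 1, 3 and 5. Of their 16 nearest protein-coding neighbours, 13 passed 1 FPKM. None met the rule between day 2 and day 0, where 0.817% of all genes were called higher and 1.64% lower. In inflorescences against day 2, 2 of the 13 were higher and none was lower, beside 13.9% and 4.22% of all genes. The genes next to LFY, GUT1 and AT5G61865, had 62.1 and 11.7 FPKM at day 2 against 49.1 and 9.42 FPKM at day 0. In the reference annotation PAN overlaps AT1G68630, which stood between 0.0273 and 1.61 FPKM over the 4 groups.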

How the data were processed

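Stranded, poly(A)-selected libraries were read for 50 cycles, per the labels' protocols. The values are FPKM as deposited by the authors, with 1 value per gene and group. The unit follows from the range of the values and from Cufflinks in the submitters' processing notes, which name CASAVA 1.8.2, Bowtie2 2.1.0, TopHat2 2.0.10, Cufflinks 2.1.1 and build TAIR10. How the 3 libraries were merged, which gene annotation was used and whether groups were scaled is not given in the sources used here. Depth per library is unknown, so no interval or floor is given.

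Rows of the 567 repeated identifiers were summed. The design foresaw a test for per-library values and a rule of size for merged values, and the second applied. Symbols and neighbours came from RefSeq TAIR10.1. As the builds carry different names, no coordinates or sequences are printed.

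The 8 genes and all lists were chosen with earlier results of these data known. The lists were 19 upstream activators, 12 repressors, 10 protein partners, 10 downstream targets, 16 family relatives and 4 marker lists. Of these, the ovule and carpel list (5 genes) had a median of 3.33 in inflorescences against day 2. In it 4 genes were higher, and SPT was lower, with 16.2 FPKM in inflorescences against 62.0 FPKM at day 2. SPT and CRC of this list also had 44.5 and 5.73 FPKM in day-0 apices. The text names all 8 members and the 3 genes with a symbol most like each of them. Other names were taken from list genes past the rule and from the first 4 genes of each list, not all of which are named. MP, ANT, AIL6, SVP, SWN, LHP1, SYD, WUS, TGA3, ROXY1 and RAX1 for day 2 against day 0, and the neighbours, were chosen after their values were seen. Calculations used Python 3.11.15, pandas 2.3.3 and numpy 2.4.6.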

Additional observations from a re-analysis of the deposited data

How the results depend on the processing

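Pseudocounts of 0.1 and 5 and both scalings made up 4 settings for the 8 genes. Under these, 187 of 192 values over 6 comparisons kept their direction and their side of the rule. Only the scalings could turn a direction, which was fixed in advance under both pseudocounts. The pseudocount of 0.1 could only add calls and that of 5 could only remove them, while the scalings could do either. FUL in inflorescences against leaves turned to 0.034 after scaling to the same sum, and 4 values of FUL and CAL passed the rule in addition. A call at 1.5-fold and a minimum of 1 FPKM could only add calls, and added 6. Leaving out the filter or taking the highest row of a repeated identifier could not change these genes. With a call at 1.5-fold, 1346 genes were called for day 2 against day 0 (548 in the values reported), 6836 for inflorescences against day 2 (4040) and 6433 for inflorescences against day 0 (3680), and 1 of the 8 genes, FUL, was lower at day 2. A pseudocount of 5 left 317 genes called for day 2 against day 0. Without AP1 and CAL, an alternative chosen after seeing the data, 3 genes were higher in inflorescences than in leaves, in place of 5. No paired analysis was possible because the table holds 1 merged value per group and no replicate columns. For the same reason leaving out replicates was not run. Without depth, values below 1 FPKM, such as those in leaves, have unknown precision.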
